A study of Mus musculus with 435 samples.

Results

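Expression of the alcohol, aldehyde, retinol and steroid dehydrogenases and the aldo-keto reductases was described in the livers of 435 db/db F2 mice. The group comprised 66 of the 13379 genes with a measured value, taken by symbol: every gene named Aldh, Adh, Akr, Rdh, Hsd or Dhrs followed by a digit, leaving out Rdh9, Rdh16f2, Hsd17b6 and Hsd17b7. It held 17 Aldh, 6 Adh, 14 Akr, 8 Rdh, 13 Hsd and 8 Dhrs genes, each measured by 1 probe set. The rule reads symbols and no expression value, but it was set with earlier results of these data known.

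These enzymes pass hydride between NAD(H) or NADP(H) and an alcohol or carbonyl group. Alcohol, retinol and hydroxysteroid dehydrogenases interconvert alcohols with aldehydes or ketones, aldehyde dehydrogenases oxidise aldehydes to acids, and aldo-keto reductases reduce carbonyls of sugars, lipids and steroids. In liver they clear ethanol and lipid-derived aldehydes, turn retinol into retinal and retinoic acid, break down several amino acids, build bile acids and activate or inactivate steroid hormones.

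All mice were F2 offspring of a cross of C57BL/6 and DBA/2J and all were db/db, an inherited deficiency of the leptin receptor present in all their tissues, so no mouse with a working receptor was compared. They were fed chow and killed at 5 or 12 weeks of age. The younger mice were 118 females and 101 males, the older ones 110 females and 106 males, and each mouse has 1 array. F2 mice differ from each other genetically, so the spread within a group includes inherited differences, and no source used here names litters. P-values of differences and slopes set them against the spread between these mice, which were treated as independent.

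Values are log2 levels from robust multi-array averaging (RMA), and a log2 difference is a fold change on a log scale; levels of different probe sets were not compared as amounts of RNA. A mean below the array medians is called a low signal. The median level of an array lay between 5.56 and 5.7. Of 10 hepatocyte markers 8 were measured, and their mean lay between 12.50 and 13.13 on every array. The mean of 6 macrophage markers averaged 8.65 in the younger females, 8.56 in the younger males, 8.51 in the older females and 8.35 in the older males, so it moved with age and sex, and its part in the results was not tested. Of the 8 hepatocyte markers 5 were lower and 0 higher at 12 weeks in each sex, with median differences of -0.070 in females and -0.079 in males. Of 4 cholangiocyte markers 3 were lower in each sex (medians -0.148 and -0.134), with 1 higher in females and 0 in males. Their mean was a low signal (4.99 to 5.13 by group). Fabp4, the only 1 of 5 adipocyte markers measured, was higher by 0.202 and 0.213, also at a low signal (4.02 to 4.29). Fewer cells of a type and less RNA per cell cannot be told apart in bulk tissue. A pair of acinar pancreas markers averaged above 8 on 2 arrays, a female and a male of 12 weeks; without them 259 of 262 called values of members stayed called. In 8 arrays the X-linked gene Eif2s3x was nearer the other sex; without them 305 of 307 stayed called.

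Promoters of 5 genes are printed because these genes carry the largest differences below: Aldh3a2 and Rdh16, which were higher at 12 weeks, Rdh11 and Akr1c18, which were lower, and Hsd17b12, which had large slopes on insulin and liver fat. Each is the 250 bases before an annotated start, 5′ to 3′ on the gene's strand, from RefSeq on GRCm38.p6. Capitals mark matches, on either strand, to CCAAT, the E-box CACGTG, the nuclear receptor half-site AGGTCA or the STAT5 pattern TTCNNNGAA.
Aldh3a2 (chr11:61267187-61267436, minus strand): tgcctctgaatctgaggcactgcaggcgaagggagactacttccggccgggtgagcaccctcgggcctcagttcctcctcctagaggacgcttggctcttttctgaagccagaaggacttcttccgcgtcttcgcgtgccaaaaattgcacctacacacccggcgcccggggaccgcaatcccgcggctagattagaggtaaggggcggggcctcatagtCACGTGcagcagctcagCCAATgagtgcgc
Rdh16 (chr10:127800903-127801152, plus strand): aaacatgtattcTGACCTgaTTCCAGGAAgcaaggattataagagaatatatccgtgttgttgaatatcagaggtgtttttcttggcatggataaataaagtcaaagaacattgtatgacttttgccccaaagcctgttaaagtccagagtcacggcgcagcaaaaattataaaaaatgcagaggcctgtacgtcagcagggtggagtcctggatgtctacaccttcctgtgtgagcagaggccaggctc
Rdh11 (chr12:79190962-79191211, minus strand): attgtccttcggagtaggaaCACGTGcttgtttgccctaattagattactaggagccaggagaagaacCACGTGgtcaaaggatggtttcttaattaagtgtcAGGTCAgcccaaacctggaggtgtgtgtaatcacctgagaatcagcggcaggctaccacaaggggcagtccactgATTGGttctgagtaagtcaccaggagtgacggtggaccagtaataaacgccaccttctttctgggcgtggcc
Akr1c18 (chr13:4150647-4150896, minus strand): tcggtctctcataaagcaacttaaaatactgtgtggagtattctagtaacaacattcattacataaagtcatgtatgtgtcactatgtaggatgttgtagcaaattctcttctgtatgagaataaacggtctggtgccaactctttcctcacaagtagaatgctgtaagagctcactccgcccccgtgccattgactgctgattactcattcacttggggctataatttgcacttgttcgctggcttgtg
Hsd17b12 (chr2:94157910-94158159, minus strand): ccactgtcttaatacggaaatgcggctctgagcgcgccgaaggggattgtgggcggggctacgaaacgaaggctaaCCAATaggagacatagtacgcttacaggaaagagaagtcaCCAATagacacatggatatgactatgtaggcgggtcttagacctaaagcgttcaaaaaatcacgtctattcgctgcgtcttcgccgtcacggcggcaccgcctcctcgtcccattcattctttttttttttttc
Aldh3a2 had an E-box 30 bases and a CCAAT 13 bases before its start. Rdh16 had a half-site and a STAT5 match at -238 and -230. This Rdh11 start had 2 E-boxes, a half-site and a CCAAT read on the other strand, while a further Rdh11 start in the table held none of the searched letters. Hsd17b12 had 2 CCAAT boxes and Akr1c18 no match. Promoters were found for 52 of the 66 genes. Over all 32851 promoters of this length the shares with a match were 33.8% for CCAAT, 6.02% for the E-box, 14% for AGGTCA and 7.02% for TTCNNNGAA. Of the 52 genes 26, 4, 11 and 7 had one. In these and the next counts a gene has a match if any of its annotated starts has one. Some genes have several starts, so the gene counts can lie above a share of single promoters. The sterol element TCACNCCAC stood in 1.05% of all promoters and 1 of the 52, TGACNNNGC in 10.2% and 4, and the DR1 repeat, which holds AGGTCA, in 0.0335% and 0. Every match is a description of letters, with no measurement of binding.

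The first comparison asked how the enzymes differed between 5 and 12 weeks. Median plasma glucose was 224.0 mg/dl in the younger females, 240.0 in the younger males, 460.5 in the older females and 599.5 in the older males. In females 41 of the 66 were called, meaning a limma adjusted p under 0.05, against 46.2% of all genes; 19 were higher at 12 weeks (22.1% of all genes) and 22 lower (24.2%). In males 40 were called against 46.3% of all genes, 21 higher (22.3%) and 19 lower (24%). Most differences were small: the median size was 0.076 log2 units in females and 0.102 in males, against 0.050 and 0.053 over all genes. The 2 sexes have no mice in common, and 33 members (50.0%) were called in both, 17 higher and 16 lower with none in opposite directions; over all genes 33.2% were called in both and 0.5% in opposite directions. The difference between ages was also fitted within each of the 4 large array batches. There 35 of the 41 female calls and 35 of the 40 male calls had the same sign in all 4, which is partly built in because those mice are in the full fit.

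Among the aldehyde dehydrogenases the fatty aldehyde dehydrogenase Aldh3a2, which oxidises long-chain aldehydes from lipid breakdown, had the largest rise. Its level ran from 10.83 to 12.26 with a median of 11.48 in females at 5 weeks and from 11.58 to 12.46 with a median of 12.08 at 12 weeks. In males the range was 10.52 to 12.2 (median 11.39) at 5 weeks and 11.31 to 12.79 (median 12.04) at 12 weeks. The groups overlapped, but most older mice were above most younger mice of their sex. The fitted rise was 0.57 ± 0.036 log2 units (SE; 1.48-fold, adjusted p = 1.07e-42) in females and 0.68 ± 0.038 (1.60-fold, adjusted p = 3.73e-51) in males.

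The other aldehyde dehydrogenases moved less and in both directions. Aldh7a1, a lysine catabolic enzyme, rose by 0.22 in females and did not pass the test in males, where its medians were 7.06 and 7.15. Aldh2, the mitochondrial enzyme that clears acetaldehyde, rose by 0.12 in females and 0.18 in males. Aldh1b1, its mitochondrial relative, fell by 0.26 and 0.18. Aldh5a1, which oxidises succinic semialdehyde, rose by 0.087 and 0.16, and Aldh6a1 of valine breakdown by 0.055 and 0.12. The highly expressed cytosolic enzyme Aldh1a1 rose by 0.068 and 0.12, whereas its close relative Aldh1a7 fell by 0.094 and 0.045. The male fall lost its call in 6 of 14 alternatives, with values from -0.06 to -0.02 (limma adjusted p up to 0.384). Probe sets of such close relatives may detect each other's transcripts, so these 2 values are uncertain.

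Of 6 alcohol dehydrogenases measured, 3 fell and 0 rose in each sex. Over all genes 24.2% fell and 22.1% rose in females, and 24% and 22.3% in males. Adh1, the main ethanol dehydrogenase, fell by 0.053 in females and 0.037 in males. Adh4 fell by 0.105 and 0.135, and the retinol-oxidising Adh7 by 0.22 and 0.17. The male fall of Adh1 lost its call in 4 of 14 alternatives, with values from -0.05 to -0.01 (limma adjusted p up to 0.689). The Adh4 fall lost it in 3 in females (limma adjusted p up to 0.272) and in 2 in males (up to 0.0956). The Adh7 probe set had a low signal (mean 4.93).

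Of the 8 retinol dehydrogenases 3 rose and 3 fell with age in females, and 2 rose and 4 fell in males. Over all genes 22.1% rose and 24.2% fell in females, and 22.3% and 24% in males. Rdh16, Rdh11 and Rdh5 had the largest differences, and Rdh12 was called in neither sex. Rdh16, a microsomal enzyme that oxidises retinol and some 3α-hydroxysteroids, had a median of 9.92 (8.9 to 10.54) in females at 5 weeks and 10.41 (9.78 to 10.88) at 12 weeks. The male medians were 9.63 (8.79 to 10.37) and 10.28 (9.21 to 10.89). The rise was 0.44 ± 0.038 (adjusted p = 3.25e-26) and 0.61 ± 0.040 (adjusted p = 4.19e-40). Rdh11, a microsomal enzyme that reduces retinal, had a median of 10.6 (9.64 to 11.26) in females at 5 weeks and 9.96 (8.81 to 10.88) at 12 weeks. The male medians were 10.29 (8.7 to 11.15) and 9.78 (8.12 to 10.6). Its ranges overlapped widely in males, where 5 mice at 5 weeks and 7 at 12 weeks lay over 1 log2 unit below the median of their group. The fitted change was -0.65 ± 0.057 (adjusted p = 2.95e-25) and -0.645 ± 0.060 (adjusted p = 1.4e-22).

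Rdh5, known as 11-cis-retinol dehydrogenase, had female medians of 9.29 and then 8.85, and male medians of 9.16 and then 8.89. The fall was larger in females, at -0.42 ± 0.030 against -0.27 ± 0.031. Dhrs4, a peroxisomal NADPH-dependent retinal reductase, rose by 0.34 ± 0.052 and 0.31 ± 0.055, with medians of 10.92 and 10.94 at 5 weeks and 11.25 and 11.23 at 12 weeks. Its distribution had a long lower tail: 18 mice lay over 1 log2 unit below the median of their group, 5 in each 5-week group and 4 in each 12-week group, and none lay as far above. Dhrs3, a further retinal reductase, rose by 0.12 and 0.11, and Rdh10, which oxidises retinol, rose by 0.099 and 0.17. The abundant Rdh7 fell by 0.082 and 0.073; it is closely related to Rdh16 and its value is uncertain for that reason.

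**Figure D1:**
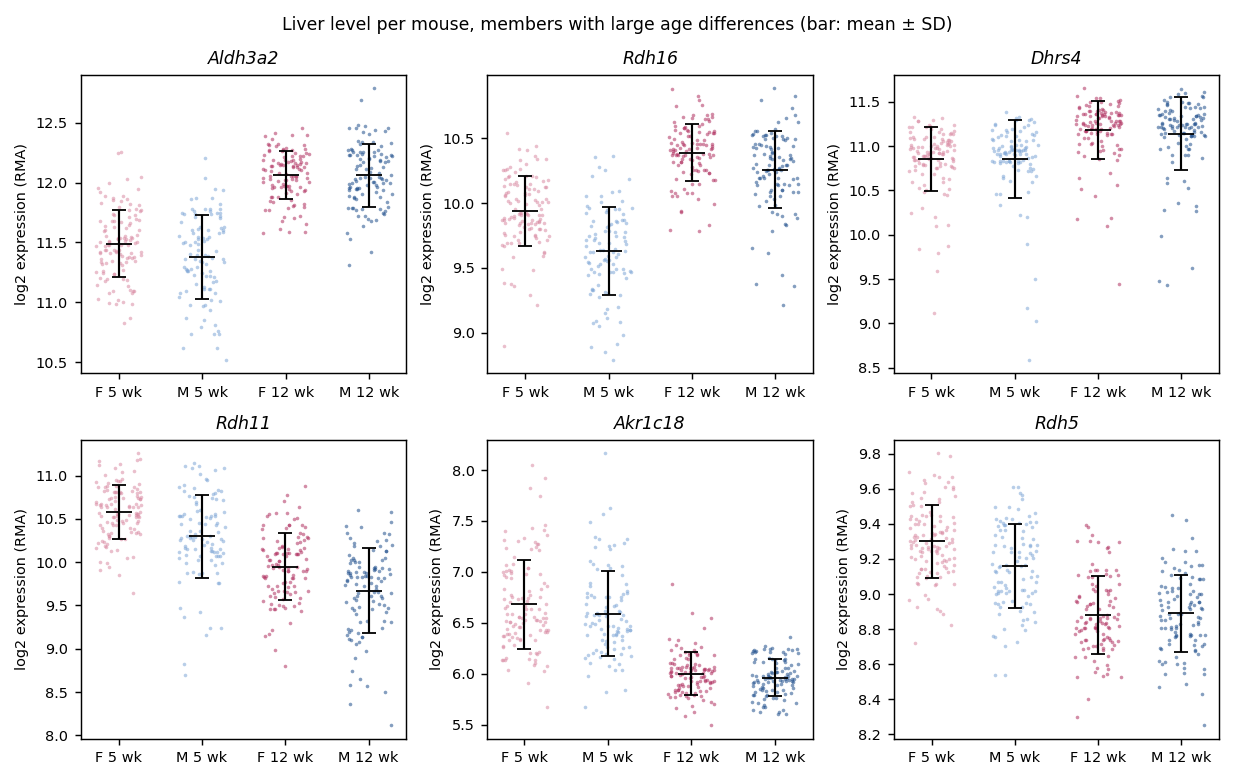
Log2 level of 6 members in each mouse, with points spread sideways by group (F, females; M, males; wk, weeks) and bars at the mean ± SD. Aldh3a2, Rdh16 and Dhrs4 were higher at 12 weeks, Rdh11, Akr1c18 and Rdh5 lower, and 18 mice formed the lower tail of Dhrs4.

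Among the steroid-metabolising members the largest change was in Akr1c18, the 20α-hydroxysteroid dehydrogenase that inactivates progesterone. Its level ran from 5.68 to 8.05 (median 6.58) in the younger females and 5.67 to 8.16 (median 6.53) in the younger males. At 12 weeks it ran from 5.49 to 6.88 (median 6.0) and 5.6 to 6.36 (median 5.95). The upper part of the younger range was therefore empty in the older mice, and the SD at 12 weeks was 0.47 times that at 5 weeks in females and 0.42 times in males. The fitted change was -0.67 ± 0.045 (adjusted p = 3.32e-38) and -0.62 ± 0.048 (adjusted p = 2.09e-30). Akr1c6, Akr1c14 and Akr1c21, other hydroxysteroid dehydrogenases of the same gene cluster, also fell, by 0.196, 0.138 and 0.128 in females and 0.158, 0.178 and 0.125 in males. The cluster did not move as one: Akr1c13 rose by 0.083 and Akr1c19 by 0.102 in males, neither passed the test in females, and Akr1c20 passed it in neither sex. The male rise of Akr1c19 lost its call in 4 of 14 alternatives, with values from 0.06 to 0.18 (limma adjusted p up to 0.244). Cross-detection within this cluster cannot be separated here.

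Of the 13 Hsd genes 4 rose and 2 fell in each sex. Over all genes 22.1% rose and 24.2% fell in females, and 22.3% and 24% in males. Hsd17b4, the peroxisomal bifunctional protein of fatty acid oxidation, rose by 0.26 ± 0.021 and 0.31 ± 0.022. Hsd17b12, the 3-ketoacyl-CoA reductase of fatty acid elongation, rose by 0.28 ± 0.030 and 0.16 ± 0.032. The lipid droplet protein Hsd17b13 rose by 0.147 and 0.11, at a low signal (mean 5.09). Its lipid droplet relative Hsd17b11 did not pass the test, with fitted values of -0.063 and 0.095. Hsd17b10, a mitochondrial enzyme of isoleucine breakdown, rose by 0.072 and 0.198.

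Enzymes that handle steroids and bile acid precursors moved in both directions with age. Rdh16, which oxidises some hydroxysteroids, was higher at 12 weeks in both sexes, as given above. Hsd17b2, Akr1d1, Hsd3b7 and Hsd3b2 were lower, and only Hsd17b2 among them was called in both sexes. Hsd17b2, which inactivates oestradiol and testosterone, fell by 0.133 and 0.185. Akr1d1, the 5β-reductase of bile acid synthesis, fell by 0.131 in females, and Hsd3b7, a bile acid enzyme, by 0.066 in females; neither passed the test in males. Hsd3b2 fell in males by 0.28 ± 0.079. Akr1b8 fell by 0.2 and 0.106, while the aldehyde reductase Akr1a1 rose by 0.1 and 0.194.

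Other genes of the same pathways, listed apart from the members, gave a mixed picture. For reference, 22.1% of all genes were higher and 24.2% lower in females, and 22.3% and 24% in males. Of 18 measured retinoid handling genes 7 were higher and 2 lower at 12 weeks in females, and 5 and 3 in males. Retsat, which saturates retinol, rose by 0.98 and 0.78, and the carotene oxygenase Bco1 fell by 0.71 and 0.855. Of 14 steroid and bile acid genes 4 were higher and 4 lower in females and 5 and 3 in males. Of 12 other alcohol and aldehyde genes 7 were higher and 5 lower in females and 4 and 3 in males, among them the aldehyde oxidase Aox1, up by 0.87 and 0.82. Of 17 targets of the oxidative stress regulator Nrf2 10 were higher and 3 lower in females and 12 and 2 in males, with list medians of 0.113 and 0.135 against 0.003 and -0.004 over all genes.

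The age differences were compared between the sexes with an interaction term, which is male minus female change. It was called for 10 of the 66 members, against 8.56% of all genes, 8 positive (5.74% of all genes) and 2 negative (2.82%); without array batch 1 the count was 5. Rdh16 rose more in males (0.168 ± 0.054) and Rdh5 fell less in them (0.153 ± 0.042). Aldh1l1, the folate enzyme that oxidises 10-formyltetrahydrofolate, rose by 0.185 in males and had a fitted change of -0.025 in females, an interaction of 0.21 ± 0.071. Dhrs11, a carbonyl reductase of steroids, rose by 0.107 in males and had a fitted -0.038 in females (interaction 0.145 ± 0.039). The other positive differences were those of Hsd17b10 (0.126), Akr1a1 (0.094), Aldh6a1 (0.065) and Aldh1a1 (0.053). Aldh3b1 (-0.125) and Dhrs7b (-0.102) went the other way, and Dhrs7b had a low signal (mean 4.5). Aldh1l1 and Aldh6a1 lost the call in 4 of 14 alternatives, Rdh16 in 3, Rdh5 in 2, and Dhrs11 and Aldh1a1 in 1. Dhrs7b lost it in 4 of 13 (limma adjusted p up to 0.48). Akr1a1, Aldh3b1 and Hsd17b10 kept it in all 14. Adjusted p ranged from 0.000209 to 0.0431 over the 10.

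**Figure D2:**
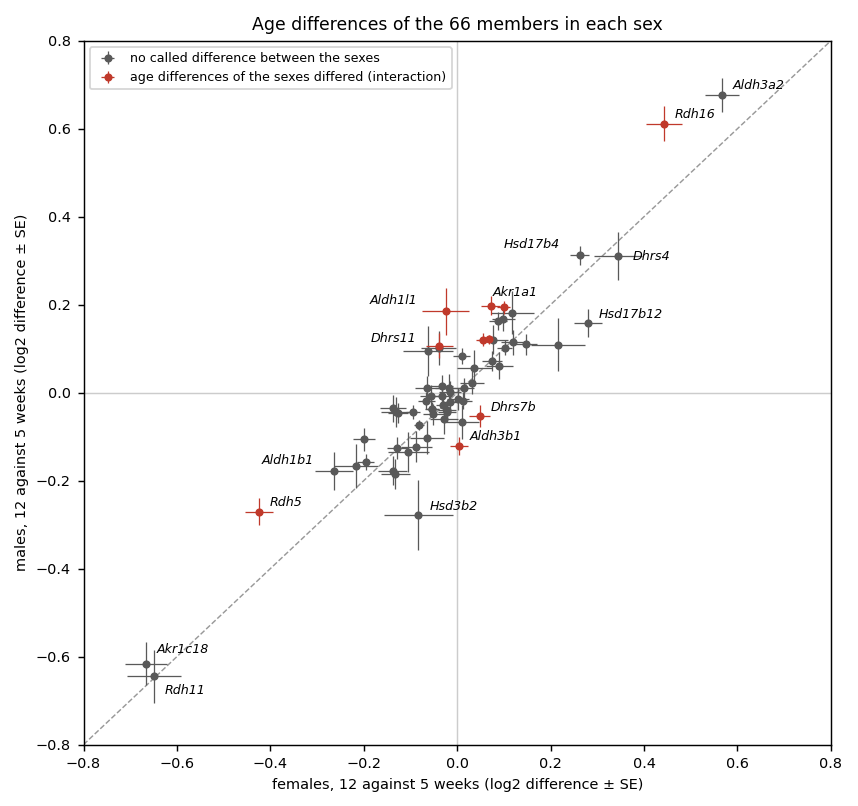
Log2 difference between 12 and 5 weeks in females (horizontal) and males (vertical) for each of the 66 members, with SE bars; the dashed line marks equal differences. Aldh3a2 and Rdh16 stand at the upper right and Akr1c18 and Rdh11 at the lower left; red points are the 10 members with a called interaction.

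The second comparison asked how males differed from females at each age. At 5 weeks 25 of the 66 members were called, against 24.9% of all genes, 7 higher in males (10.5% of all genes) and 18 lower (14.4%). At 12 weeks 21 were called, against 18.1%, 11 higher (8.97%) and 10 lower (9.08%). No member differed by over 1.5-fold between the sexes. The fits share mice with the age comparisons, so their calls are not independent of those above.

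Adh4, a liver alcohol dehydrogenase, was higher in males at both ages. At 5 weeks its median was 10.68 (9.97 to 11.36) in females and 11.06 (10.0 to 11.78) in males, and at 12 weeks 10.61 (9.87 to 11.24) and 10.86 (10.01 to 12.01). The ranges overlapped almost fully, with the medians apart. The difference was 0.32 ± 0.044 (adjusted p = 1.87e-10) and 0.29 ± 0.044 (adjusted p = 1.45e-08). Hsd3b2, a 3β-hydroxysteroid dehydrogenase, was higher in males by 0.405 ± 0.075 at 5 weeks and 0.21 ± 0.075 (adjusted p = 0.0344) at 12 weeks, where its spread was wider. At 5 weeks it ran from 6.7 to 9.0 (median 8.04) in females and from 7.14 to 9.37 (median 8.44) in males. At 12 weeks the ranges were 6.16 to 9.01 (median 8.02) and 6.51 to 10.06 (median 8.24), so the sexes overlapped over most of their range. The 12-week difference of Hsd3b2 lost its call in 4 of 14 alternatives, with values from 0.17 to 0.30 (limma adjusted p up to 0.18).

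Several aldehyde and retinol dehydrogenases were lower in males. Aldh1b1 had medians at 5 weeks of 10.72 (females) and 10.46 (males), and at 12 weeks of 10.42 and 10.32, a difference of -0.25 ± 0.040 and -0.163 ± 0.041. Aldh9a1, which makes the carnitine precursor, was lower by 0.167 and 0.091, and Aldh4a1 of proline breakdown by 0.179 and 0.077. The 12-week difference of Aldh4a1 lost its call in 6 of 14 alternatives and was -0.03 without batch 2 (limma adjusted p up to 0.782). Rdh11 was lower by 0.28 ± 0.057 at 5 weeks and 0.277 ± 0.057 at 12 weeks, and Rdh16 by 0.31 ± 0.038 and 0.138 ± 0.038. Aldh1l1 was lower by 0.18 at 5 weeks and had a fitted difference of 0.029 at 12 weeks.

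In the Akr1c cluster the sexes differed in both directions. Akr1c19 was higher in males at 12 weeks by 0.23 ± 0.037, with medians of 11.19 and 11.41. Akr1c20 was lower in males by 0.163 at 5 and 0.24 at 12 weeks. Akr1c12 was higher by 0.081 and 0.097. Hsd11b1, which regenerates active glucocorticoid, was lower by 0.07 and 0.067. Hsd17b11, a lipid droplet enzyme, was higher in males at 12 weeks by 0.186 ± 0.055, and Hsd17b12 at 5 weeks by 0.091.

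**Figure D3:**
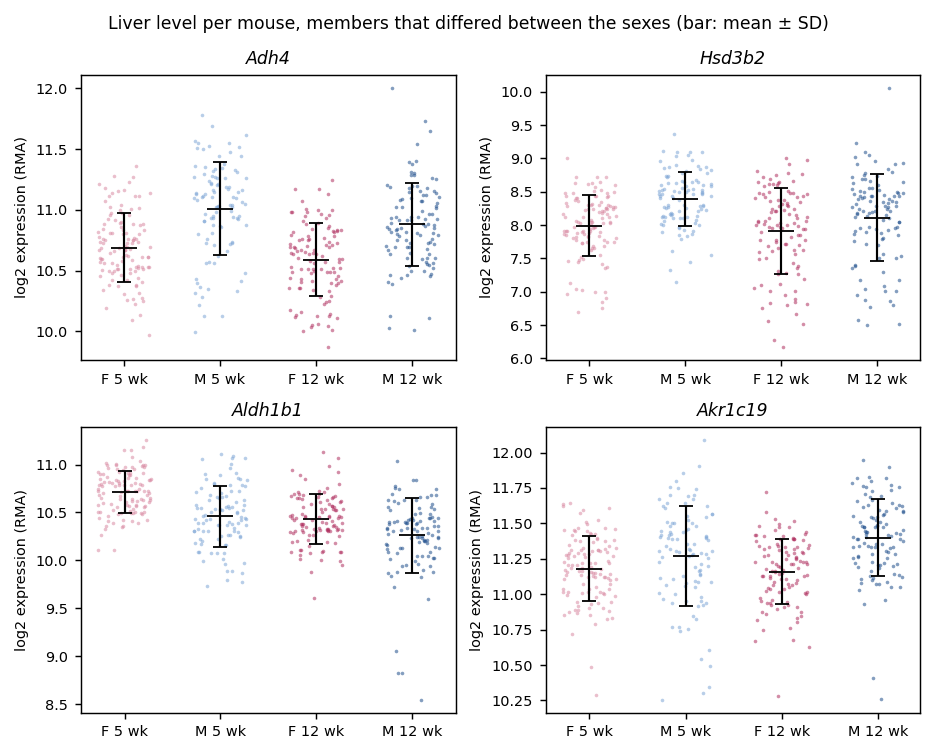
Log2 level of 4 members in each mouse by group (F, females; M, males; wk, weeks), with bars at the mean ± SD. Adh4 and Hsd3b2 were higher in males at both ages and Akr1c19 at 12 weeks. The 12-week difference of Hsd3b2 lost its call in 4 of 14 alternatives. Aldh1b1 was lower in males at both ages, with 4 older males over 1 log2 unit below their group's median.

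The third comparison related each enzyme to the mouse's own traits. Each trait was put on a log2 scale and divided by its SD within sex and age, and the slope gives how far a member's log2 level moved over 1 such SD, with sex and batch in the model. At 12 weeks 1 SD was a factor of 1.49 in females and 1.37 in males for glucose, 2.13 and 2.32 for insulin, 2.01 and 1.96 for triglycerides and 1.19 and 1.23 for the liver fat fraction. At 5 weeks the factors were 1.41 and 1.40, 1.56 and 1.63, 1.53 and 1.63, and 1.13 and 1.14. A slope at 5 weeks and one at 12 weeks are therefore in unlike units. The part of this in the age differences of slopes was not tested. The traits are measured in the same mice and move together: at 12 weeks glucose and insulin had a Spearman correlation of -0.68 over 110 females and -0.49 over 106 males. Slopes on different traits are therefore given side by side and are not separate evidence.

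At 12 weeks 22 members had a called insulin slope, against 27.5% of all genes, 9 positive (13.4%) and 13 negative (14.1%). The largest were in Rdh11 (0.209 ± 0.027, adjusted p = 1.7e-11) and Hsd17b12 (0.155 ± 0.014, adjusted p = 1.08e-20), which were higher in mice with more insulin. Hsd17b2 (0.079) and Akr1c18 (0.056) followed. Lower with insulin were Aldh1l1 (-0.080), Rdh5 (-0.064), Aldh2 (-0.063), Aldh1b1 (-0.057) and Adh7 (-0.057). Of 13 alternatives Aldh1b1 lost its call in 7 and reversed in 1. Adh7 lost its call in 5, Aldh2 in 4 (limma adjusted p up to 0.549), Aldh1l1 in 2 and Rdh5 in 1. Hsd11b1 had a slope of -0.056 ± 0.008 (adjusted p = 1.67e-10), small but precise. Batch 2 held 43 of the older females and 52 of the older males, and without it 7 members were called; the part of the smaller number of mice was not tested.

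At 5 weeks no insulin slope of a member was called by limma, against 2.45% of all genes (1.02% positive and 1.43% negative), and 9 members had an unadjusted p under 0.05. The difference of the insulin slope between the ages was itself called for 11 members, against 13.2% of all genes. This difference compares slopes per SD of each age, and the SD of insulin was a larger factor at 12 weeks. Rdh11 had a slope of -0.006 ± 0.027 at 5 weeks and differed by 0.235 ± 0.038 (adjusted p = 2.11e-07). Hsd17b12 had 0.019 ± 0.013 at 5 weeks and differed by 0.141 ± 0.019 (adjusted p = 3.44e-10). Without batch 2 the count was 4.

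With glucose at 12 weeks 20 members were called, against 12.9% of all genes, 17 positive (7.41%) and 3 negative (5.5%); without batch 2 the count was 8. The positive slopes were led by Aldh1b1 (0.161 ± 0.020, adjusted p = 1.2e-11), Hsd3b2 (0.125 ± 0.044), Aldh1l1 (0.104 ± 0.020) and Adh4 (0.094 ± 0.021). Hsd17b2 (-0.062), Hsd17b12 (-0.059) and Akr1c18 (-0.047) were lower in mice with more glucose. The Hsd3b2 slope lost its call in 6 of 13 alternatives, with values from 0.09 to 0.16 (limma adjusted p up to 0.275). Without the 4 mice of each sex farthest from the median glucose the Aldh1b1 slope was 0.09, still called. At 5 weeks 8 members were called, against 8.12% of all genes, 4 positive (4.51%) and 4 negative (3.61%); without batch 4 the count was 4 and without a batch term 16. Aldh3a2 had 0.133 ± 0.019, and Hsd17b10 (0.044), Hsd17b12 (0.044) and Akr1a1 (0.038) were also positive. Rdh11 (-0.136 ± 0.026), Akr1c18 (-0.129 ± 0.029), Hsd17b2 (-0.057) and Akr1c6 (-0.034) were negative.

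With glucose and insulin in the same model, a fit added after seeing the data, 13 members had a called glucose slope (7.09% of all genes, 4.23% positive and 2.86% negative) and 15 a called insulin slope (23.6%), 10 positive (11.5%) and 5 negative (12%), against 9 positive and 13 negative without glucose. The insulin slopes of Rdh11 and Hsd17b12 were 0.232 and 0.161 there. The glucose slope of Aldh1b1 was 0.169 and its insulin slope turned from -0.057 to 0.02. The glucose slope of Hsd17b12 turned from -0.059 to 0.01.

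With plasma triglycerides at 12 weeks 22 members were called, against 19.6% of all genes, 18 positive (10.7%) and 4 negative (8.93%); without batch 2 the count was 10. Hsd3b2 (0.150), Aldh1b1 (0.148), Adh4 (0.137) and Rdh5 (0.115) were higher in mice with more triglyceride. Hsd17b12 (-0.104), Rdh11 (-0.097), Aldh3a2 (-0.059) and Akr1c18 (-0.039) were lower. At 5 weeks 11 were called, against 14.6%, 7 positive (9.16%) and 4 negative (5.39%). There Aldh3a2 (0.115), Dhrs3 (0.068), Hsd17b12 (0.060) and Akr1a1 (0.041) were positive, and Rdh11 (-0.155), Akr1c18 (-0.153), Akr1c6 (-0.035) and Akr1b8 (-0.033) negative.

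The triglyceride slopes of Aldh3a2 and Hsd17b12 were called at each age with opposite signs. The test of the difference gave -0.171 ± 0.024 (adjusted p = 7.09e-10) for Aldh3a2 and -0.157 ± 0.020 (adjusted p = 1.14e-11) for Hsd17b12, among 13 members called against 16.1% of all genes. Both differences kept their sign and call without the 4 mice of each group farthest from the median. The glucose slope differed between ages in 8 members (6.58% of all genes), among them Aldh1b1 (0.196 ± 0.027), Rdh5 (0.135 ± 0.021) and Aldh3a2 (-0.151 ± 0.024); without batch 2 or batch 4 the count was 5.

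The liver fat fraction, the share of fat in the liver as measured by NMR, was related last. At 12 weeks 31 members were called, against 26% of all genes, 12 positive (13%) and 19 negative (13%); without batch 2 the count was 16. Fatter livers had more Hsd17b12 (0.155 ± 0.014, adjusted p = 9.65e-21) and Aldh3a2 (0.120 ± 0.013, adjusted p = 2.78e-15), and also more Rdh11 (0.078) and Aldh18a1 (0.071). The Rdh11 slope lost its call in 4 of 12 alternatives, with values from 0.05 to 0.10 (limma adjusted p up to 0.345). Fatter livers had less Hsd3b2 (-0.154 ± 0.043), Adh4 (-0.087), Rdh5 (-0.080) and Aldh1l1 (-0.079). Aldh18a1 makes proline precursors and had a low signal (mean 3.79).

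At 5 weeks 11 members were called on liver fat, against 5.6% of all genes, 3 positive (3.06%) and 8 negative (2.54%); without batch 2 the count was 7 and without batch 4 it was 5. Aldh3a2 (0.127 ± 0.019), Hsd17b4 (0.054) and Hsd17b10 (0.031) were positive. Hsd3b2 (-0.126 ± 0.029), Aldh1l1 (-0.098), Adh4 (-0.070) and Akr1c14 (-0.067) were negative, and Adh4 lost its call in 5 alternatives. The age difference of the Aldh3a2 slope on liver fat was not called, while those of its glucose and triglyceride slopes were. The liver fat slope differed between ages in 5 members (12.6% of all genes), led by Rdh11 (0.149 ± 0.040) and Hsd17b12 (0.127 ± 0.019); without batch 2 the count was 2.

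**Figure D4:**
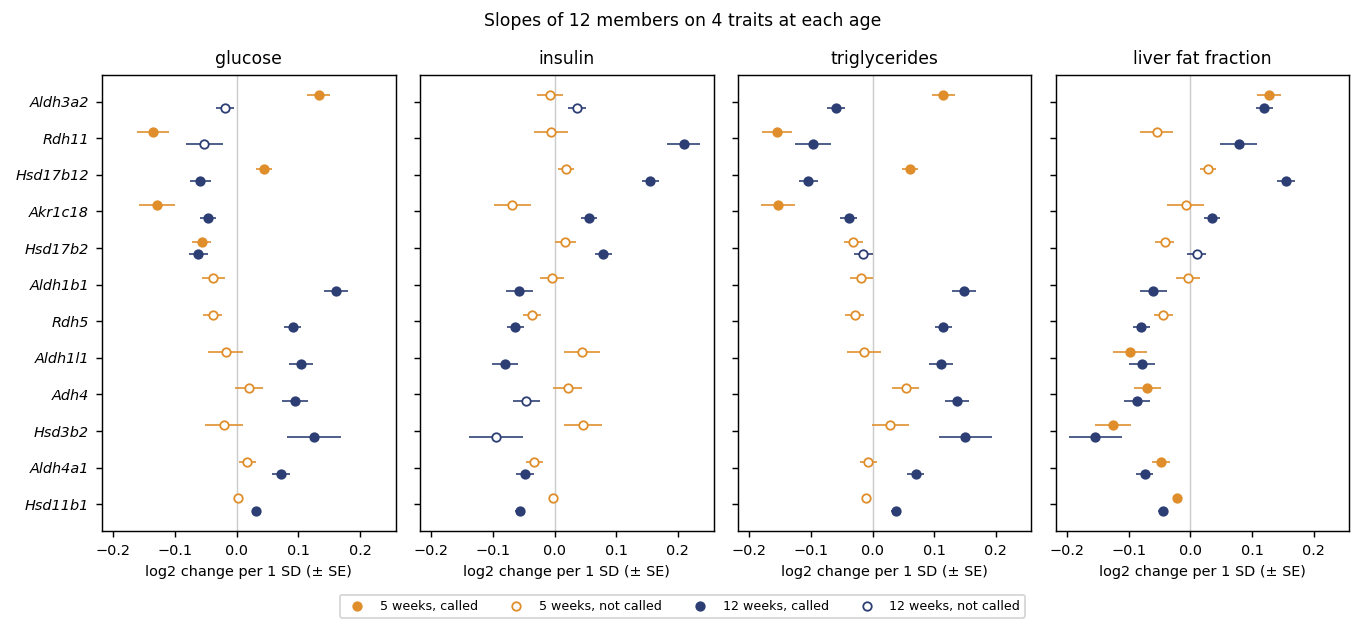
Log2 change per 1 SD of each of 4 traits for 12 members at 5 weeks (orange) and 12 weeks (blue), with SE bars; filled points were called. Rdh11 and Hsd17b12 had insulin slopes of 0.209 and 0.155 at 12 weeks and none called at 5 weeks, and the triglyceride slopes of Aldh3a2 and Hsd17b12 lay on opposite sides of 0 at the 2 ages.

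Whether slopes differed between the sexes was tested at 12 weeks. The glucose slope differed in 8 members, against 2.5% of all genes, 4 higher in males (1.25%) and 4 lower (1.25%). The insulin slope differed in 0 members by limma, against 0.0972% of all genes, and 5 had an unadjusted p under 0.05. Rdh11 had a glucose slope of -0.203 ± 0.040 in females and 0.098 ± 0.040 in males, a difference of 0.300 ± 0.057 (adjusted p = 0.000277). Aldh1b1 had 0.084 and 0.238, Dhrs3 had -0.006 and 0.099, and Aldh3a2 had 0.048 and -0.086.

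Some of these differences were smaller without the mice of extreme glucose. The male median was 599.5 mg/dl, and 3 males measured 157, 159 and 182 mg/dl. Their Rdh11 levels were 8.58, 8.57 and 8.36, their Aldh1b1 levels 8.82, 8.54 and 8.83 and their Dhrs3 levels 10.10, 9.97 and 10.10, near or at the lowest values in males of that age, while their Aldh3a2 levels were 12.26, 12.46 and 12.69. Their triglycerides were 50, 40 and 49 mg/dl against a male median of 163.0 mg/dl. They came from array batches 2 and 3. Leaving out the 2 mice of each sex farthest from the median glucose left 1 called member, Aldh3a2 (-0.13, adjusted p = 0.0133), and leaving out 4 of each sex left 0. The Rdh11 difference was then 0.20 (adjusted p = 0.0674) and 0.13 (adjusted p = 0.408), with male slopes of 0.01 and -0.05. The female Rdh11 slope was -0.19 and -0.18 in these fits. The Aldh1b1 difference was 0.05 and -0.03, that of Dhrs3 0.04 and 0.00, that of Hsd17b13 -0.06 and -0.03 and that of Hsd17b10 -0.05 and -0.03. Others kept about their size while losing the call: Akr1c6 had 0.07 and 0.07 (adjusted p = 0.0833 and 0.19), Hsd17b4 had -0.06 and -0.07 (adjusted p = 0.16 and 0.139), and Aldh3a2 had -0.10 without 4 of each sex (adjusted p = 0.107).

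**Figure D5:**
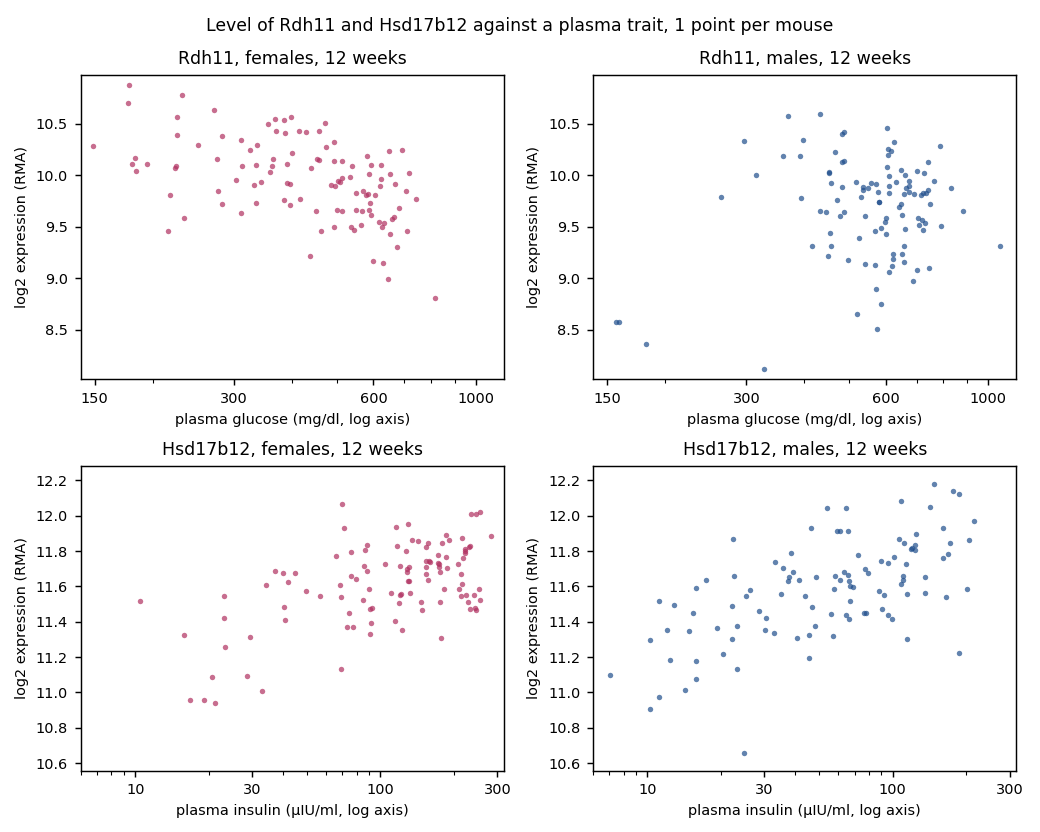
Log2 level of Rdh11 against plasma glucose (upper) and of Hsd17b12 against plasma insulin (lower) in each mouse of 12 weeks, females at left and males at right, with log horizontal axes. In males 3 mice under 200 mg/dl glucose hold low Rdh11, and Hsd17b12 was higher in mice with more insulin in both sexes.

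The spread between mice of a group differed widely among the members. The median within-group SD was 0.183 over the 66 and 0.179 over all genes, and 35 members lay above the median of all genes. The widest were Hsd3b2 (0.551), Rdh11 (0.435), Aldh7a1 (0.422), Hsd17b11 (0.392) and Dhrs4 (0.385). Hsd3b2 had 38 mice over 1 log2 unit below their group's median and Rdh11 had 13. The narrowest were Aldh1a1 (0.073), Rdh7 (0.079), Adh1 (0.088), Akr1a1 (0.099) and Aldh1a7 (0.108), whose mean levels were 13.03 to 14.38; the part of signal strength in their spread was not tested.

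Members were also compared with each other across mice, after removing group and batch means. Of 2145 pairs, 621 had an adjusted permutation p under 0.05 for Pearson's r, 419 positive and 202 negative, and 8 pairs had r above 0.5. Only pairs of members were permuted, so the 621 has no share of all gene pairs beside it. As a description, r was above 0.2 in 8.58% of the 2145 pairs and in 5.27% of all pairs of the 13379 genes. It was below -0.2 in 2.19% and 3.08%, and above 0.5 in 0.373% and 0.048%. All 9 pairs below had a permutation p of 1e-05, the smallest that 100000 permutations can give, for both r and rho over 435 mice (adjusted p = 0.00011 for r and 0.00013 for rho). Shared array quality, liver composition and inherited differences reach both members of a pair, and their part was not tested.

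The highest was Aldh2 with Dhrs4 (r = 0.667, rho = 0.661), encoded on different chromosomes. It was 0.656 without the 2 mice farthest from the median, 0.617 to 0.718 within the 4 batches and 0.644 to 0.701 within the groups. Both were lower where Hsd17b11 was higher: Dhrs4 with Hsd17b11 had r = -0.562 (rho = -0.556) and Aldh2 with Hsd17b11 r = -0.538 (rho = -0.524). Without 2 mice these were -0.551 and -0.527, and they held their sign in each batch, from -0.488 to -0.601 and from -0.471 to -0.650. Aldh2 and Hsd17b11 lie on the same chromosome and Dhrs4 on another.

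Of the other pairs, those of amino acid and bile acid enzymes are listed first, and each is given with r without the 2 farthest mice and then the range of r within batches. Akr1d1 with Aldh6a1 had r = 0.640 (rho = 0.627), 0.637 without 2 mice, 0.585 to 0.675 within batches, but 0.411 in younger males against 0.744 in older males. Aldh6a1 with Hsd17b4 had r = 0.607 (rho = 0.599; 0.609 without 2 mice; 0.518 to 0.659 within batches). Aldh4a1 with Rdh5 had r = 0.542 (rho = 0.514; 0.528; 0.386 to 0.617), with 0.302 in younger females against 0.640 in younger males. Hsd17b2 with Hsd3b7 had r = 0.511 (rho = 0.473; 0.509; 0.327 to 0.654). Akr1c12 with Akr1c13 had r = 0.540 (rho = 0.545; 0.525; 0.492 to 0.632), a pair of close relatives whose probe sets may detect both transcripts. A further negative pair was Hsd11b1 with Hsd17b12 (r = -0.424, rho = -0.381; -0.430; -0.314 to -0.470).

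Across the 15 comparisons Rdh11 and Akr1a1 were called in 10 each. Adh6b, Aldh16a1, Aldh1l2, Aldh3b2, Dhrs2, Hsd11b2, Hsd17b1 and Rdh12 were called in 0. Of these 8, Aldh16a1 had a mean of 8.08 and the others 4.0 to 5.55, near or below the array medians, and detection calls were not used.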

How the data were processed

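Liver RNA of 435 mice was measured on Affymetrix arrays, 1 per mouse. The deposited table holds log2 values made by the authors with RMA, per the submitters' processing notes; RMA corrects background, normalises quantiles and summarises probes, so differences are relative and compressed at low signal. Of 15397 probe sets, 13516 had a single gene symbol, and the one with the highest mean was kept for each of 13379 genes. One linear model per gene with group and batch was fitted with limma 3.58.1 over all genes, with Benjamini-Hochberg adjusted p and a threshold of 0.05. The batch is a code of 6 values in the array names, and no source used here says what it stands for. Trait slopes used log2 traits scaled within sex and age. Pairs were tested by 100000 permutations (Python 3.11.15, numpy 2.4.6, scipy 1.17.1), and figures drawn with matplotlib 3.10.9. Scripts were tested on simulated data. Depth does not apply to arrays; their number limits the precision. Any member could be named; those described first were the called ones with the largest differences in each direction (6 per age comparison, 4 per sex comparison or slope), all called interactions, the 5 widest and 5 narrowest in spread, and the 6 highest and 3 lowest pairs. The members and lists were chosen with earlier results of these data known. Alternatives covered batch, scaling, filters, traits and left-out arrays; some were chosen after seeing the data, as were the models with both traits and the age differences of slopes.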

Additional observations from a re-analysis of the deposited data

Results flagged for a closer look

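The age difference itself differed between males and females, by a test of the interaction, for 10 members (male minus female change, log2 units). That is 15.2% of the members, against 8.56% of all genes. The values were 0.21 in Aldh1l1, 0.17 in Rdh16, 0.15 in Rdh5, 0.15 in Dhrs11, 0.13 in Hsd17b10, 0.09 in Akr1a1, 0.06 in Aldh6a1, 0.05 in Aldh1a1, -0.10 in Dhrs7b and -0.12 in Aldh3b1. Aldh1l1 and Aldh6a1 lost the call in 4 of 14 alternatives, Rdh16 in 3 and Dhrs7b in 4 of 13.

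The glucose slope at 12 weeks differed between the sexes, by a test of the difference, for 8 members (male minus female). That is 12.1% of the members, against 2.5% of all genes. The values were 0.30 in Rdh11, 0.15 in Aldh1b1, 0.11 in Dhrs3, 0.07 in Akr1c6, -0.07 in Hsd17b4, -0.08 in Hsd17b10, -0.09 in Hsd17b13 and -0.13 in Aldh3a2. Without the 2 mice of each sex farthest from the median glucose 1 was called and without 4 it was 0. The differences of Akr1c6 (0.07 and 0.07), Hsd17b4 (-0.06 and -0.07) and Aldh3a2 (-0.13 and -0.10) kept most of their size there, and those of Rdh11 (0.20 and 0.13), Aldh1b1 (0.05 and -0.03) and Dhrs3 (0.04 and 0.00) were smaller.

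In the age differences below each slope is per SD of its own age, and that SD is not the same factor at both ages. The glucose slope differed between the ages for 8 members (12 minus 5 weeks, a fit added after seeing the data). That is 12.1% of the members, against 6.58% of all genes. The differences were 0.20 in Aldh1b1, 0.13 in Rdh5, 0.11 in Aldh1l1, 0.10 in Akr1d1, 0.06 in Aldh4a1, 0.04 in Akr1c6, -0.10 in Hsd17b12 and -0.15 in Aldh3a2. Those of Aldh1l1, Aldh4a1 and Akr1c6 each lost the call in 4 of 8 alternatives, and the others kept it in all 8. For insulin the slopes of 11 members (16.7%) differed between the ages, against 13.2% of all genes. The differences were 0.23 in Rdh11, 0.14 in Hsd17b12, 0.13 in Akr1c18, 0.11 in Hsd17b11, 0.06 in Hsd17b2, 0.04 in Aldh1a7, -0.02 in Aldh1a1, -0.03 in Aldh6a1, -0.04 in Akr1a1, -0.05 in Hsd11b1 and -0.13 in Aldh1l1. Hsd17b2 lost the call in 5 of 8 alternatives and Hsd17b11 in 4 (limma adjusted p up to 0.309 and 0.48). Rdh11, Hsd17b12 and Hsd11b1 kept it in all 8. For triglycerides 13 members (19.7%) had slopes that differed between the ages, against 16.1% of all genes. The differences were 0.16 in Aldh1b1, 0.14 in Rdh5, 0.12 in Akr1c18, 0.12 in Aldh1l1, 0.09 in Akr1d1, 0.08 in Aldh4a1, 0.07 in Akr1c6, 0.06 in Akr1b8, 0.05 in Hsd11b1, 0.04 in Dhrs13, -0.06 in Hsd17b4, -0.16 in Hsd17b12 and -0.17 in Aldh3a2. Dhrs13 lost the call in 4 of 8 alternatives. For the liver fat fraction 5 members (7.58%) had such differences, a smaller share than the 12.6% of all genes. The differences were 0.15 in Rdh11, 0.13 in Hsd17b12, 0.07 in Akr1c14, -0.05 in Hsd3b1 and -0.06 in Dhrs13. Akr1c14 lost the call in 4 of 8 alternatives.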

How the results depend on the processing

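Of 3753 values of called members under the alternatives, 3360 kept their direction and call, 390 lost the call and 3 reversed. The age counts stayed between 36 and 43 in females and between 37 and 43 in males. Counts of called members moved as follows, and the cause was not tested. Without batch 2 they were 8 for glucose, 7 for insulin, 10 for triglycerides and 16 for liver fat at 12 weeks, 7 for liver fat at 5 weeks, and 5, 4 and 2 for the age differences of the glucose, insulin and liver fat slopes. Without batch 4 they were 4 for glucose and 5 for liver fat at 5 weeks and 5 for the age difference of the glucose slope, and without batch 1 the interaction had 5. With no batch term 16 members were called for glucose and 2 for insulin at 5 weeks. The insulin count at 5 weeks was 1 without the arrays nearer the other sex and 1 without the dimmest genes. With insulin in the model 13 members were called for glucose at 12 weeks. The sex difference of the glucose slope had 2 called members on normal scores, 1 without the 2 farthest mice of each sex and 0 without the 4 farthest (limma; 17 of the 66 had an unadjusted p under 0.05 with all mice). The reversed values were -0.03 for Aldh1b1 in that last fit, 0.02 for the insulin slope of Aldh1b1 with glucose in the model and 0.01 for the glucose slope of Hsd17b12 with insulin in the model. No paired analysis was possible because each mouse is in 1 group. Low signal limits dim probe sets, and detection calls were not used.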
